A study of Homo sapiens with 2 samples.

Results

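In 726 of 26995 autosomal bins of 100 kb (2.69%), the DNMT3A mutant line OCI-AML3 had a low number of methylation calls for the number that the DNMT3A wild-type line AML5 had in the same bin. A call is the reading of 1 CpG in 1 sequencing read as methylated or unmethylated, so the number of calls follows the read depth. Calls were summed over CpG dinucleotides with at most 20 other CpGs within 500 bp, leaving out those with over 100 calls in either line, in bins with at least 50 such CpGs. The OCI-AML3 to AML5 ratio of these sums was divided by its median over all bins (0.846 before scaling), and bins with a scaled ratio below 0.75 were kept. The bins were thus chosen by their depth ratio, which is given as a description with no test. Inside the threshold the ratios reached 0.7499, and the next bins outside it had ratios of 0.7503 and more. A further 755 bins lay between 0.75 and 0.8.

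The data were whole-genome bisulfite sequencing counts of 2 cell lines derived from acute myeloid leukemia (AML), with 1 library each and no replicate. OCI-AML3 carries a mutation on 1 allele of DNMT3A, a DNA methyltransferase that places new methyl groups on CpGs, and AML5, named OCI-AML5 in its sample record, has the wild-type gene. Both were grown in DMEM with fetal bovine serum, and neither was treated. The tables listed 28217448 CpGs with 902802339 calls in OCI-AML3 and 894828667 in AML5, and a median bin had 24.9 and 29.0 calls per CpG, respectively. With 1 library per line, a difference between the lines cannot be told apart from a difference between the libraries, and the DNMT3A mutation is only 1 of many differences between these lines. No normal DNA was included, so a low ratio gives OCI-AML3 relative to AML5 and not to a diploid standard. DNA came from whole cultures, in which fewer copies in all cells and a larger loss in some of the cells cannot be told apart.

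In shotgun sequencing, the number of reads from a region follows the number of DNA copies, but also base composition, repeats and how well reads can be placed. Large deletions of a chromosome arm are a common kind of lesion in blood cancers, and the long arm of chromosome 13 holds a well-known example, with the RB1 tumor suppressor and the microRNAs miR-15a and miR-16. Parental alleles can also carry different methylation, as at imprinted genes, where a CpG read from both alleles shows an intermediate level and a CpG read from 1 allele shows a level near either end.

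The sequences that the results below turn on lie in the longest series of such bins, on chromosome 13 (GRCh37 coordinates, RefSeq mature microRNAs). The first is a CpG-rich stretch of an RB1 intron, shown because the gene is imprinted and the stretch was read deeply in both lines, and the next 2 are from the promoters of that run furthest below AML5 (PCDH20) and furthest above it (CNMD). Each runs 5′ to 3′ on the strand named, and CpGs are in capitals.
RB1 intron, chr13:48892581-48892880, plus strand: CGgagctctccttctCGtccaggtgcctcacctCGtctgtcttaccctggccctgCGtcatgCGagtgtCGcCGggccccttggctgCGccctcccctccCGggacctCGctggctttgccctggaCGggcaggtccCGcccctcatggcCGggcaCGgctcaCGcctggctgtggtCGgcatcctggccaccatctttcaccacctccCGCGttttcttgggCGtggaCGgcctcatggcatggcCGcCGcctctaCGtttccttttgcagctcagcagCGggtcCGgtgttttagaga
PCDH20, chr13:61988989-61989288, minus strand: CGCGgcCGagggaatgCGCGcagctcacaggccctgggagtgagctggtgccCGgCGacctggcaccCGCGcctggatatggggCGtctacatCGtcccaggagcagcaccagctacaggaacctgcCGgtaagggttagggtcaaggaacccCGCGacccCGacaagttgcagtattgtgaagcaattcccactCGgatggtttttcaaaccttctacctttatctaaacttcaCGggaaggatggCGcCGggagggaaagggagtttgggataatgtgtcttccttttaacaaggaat
CNMD, chr13:53312852-53313151, minus strand: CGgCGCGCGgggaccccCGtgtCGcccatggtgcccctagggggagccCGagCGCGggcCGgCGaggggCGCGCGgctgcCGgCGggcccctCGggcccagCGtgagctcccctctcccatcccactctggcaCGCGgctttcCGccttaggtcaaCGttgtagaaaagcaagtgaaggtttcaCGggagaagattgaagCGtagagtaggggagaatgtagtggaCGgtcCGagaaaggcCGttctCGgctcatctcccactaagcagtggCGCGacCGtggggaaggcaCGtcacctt

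The 2 mature microRNAs of the DLEU2 locus below share their seed, bases 2 to 8, which is in capitals and with which a microRNA pairs to its target transcripts.
hsa-miR-15a-5p: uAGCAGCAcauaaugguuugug
hsa-miR-16-5p: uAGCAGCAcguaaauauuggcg

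The bins were spread unevenly along the genome. Chromosome 13 held 303 of the 726 (41.7%), which was 31.6% of its 960 bins, and chromosome 19 held 74, or 13.2% of its 562 bins. Every autosome had at least 2 such bins, and on the other 20 chromosomes they made up 0.256% (chromosome 17) to 2.80% (chromosome 18) of the bins. Joining bins separated by at most 500 kb gave 241 runs, of which 153 were single bins and 85 held 2 to 9. The other 3 runs held 10 or more and together 351 bins: 294 on chromosome 13, 47 on chromosome 19 and 10 on chromosome 11.

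**Figure D1:**
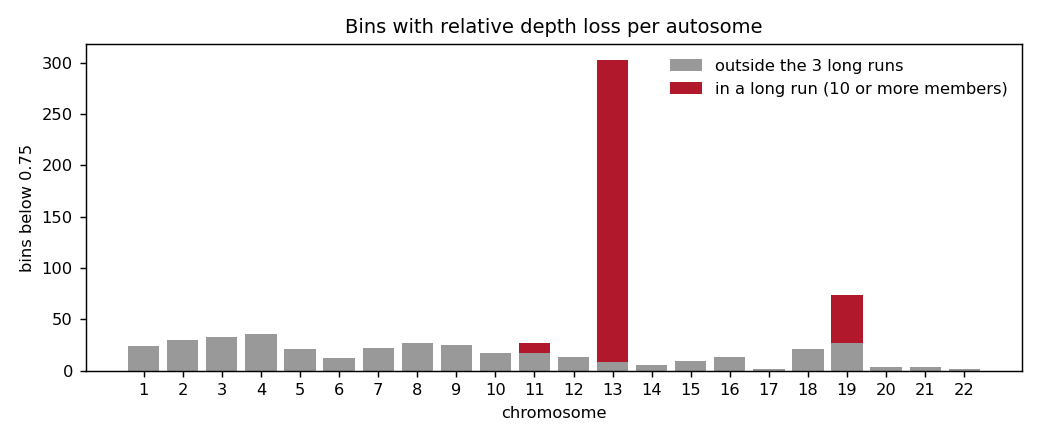
Number of bins with a scaled depth ratio below 0.75 on each autosome; red marks bins in the 3 runs of 10 or more, grey the others. Chromosome 13 stands out with 303 bins, 294 of them in a single run, and chromosome 19 follows with 74.

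A low ratio arises from few calls in OCI-AML3 or from many in AML5, so the calls per CpG in each line were divided by that line's own median over bins. In the chromosome 13 run the median was 0.419 of its own median in OCI-AML3 and 0.882 in AML5, and all 294 bins were below 0.75 in OCI-AML3. The chromosome 19 run was different: OCI-AML3 stood at 0.916 and AML5 at 1.46, with AML5 above 1.25 in 43 of 47 bins and OCI-AML3 below 0.75 in only 3. For most of those 43 bins the name "depth loss in OCI-AML3" does not describe the values, since depth was raised in AML5. At chr19:24400001-24500000 both held, with OCI-AML3 at 0.733 of its own median and AML5 at 1.54. The lowest ratio of the run, at chr19:24600001-24700000, had both lines below their own medians, OCI-AML3 at 0.177 and AML5 at 0.658. Over all 726 bins, OCI-AML3 was below 0.75 of its own median in 626 and AML5 was above 1.25 in 81.

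**Figure D2:**
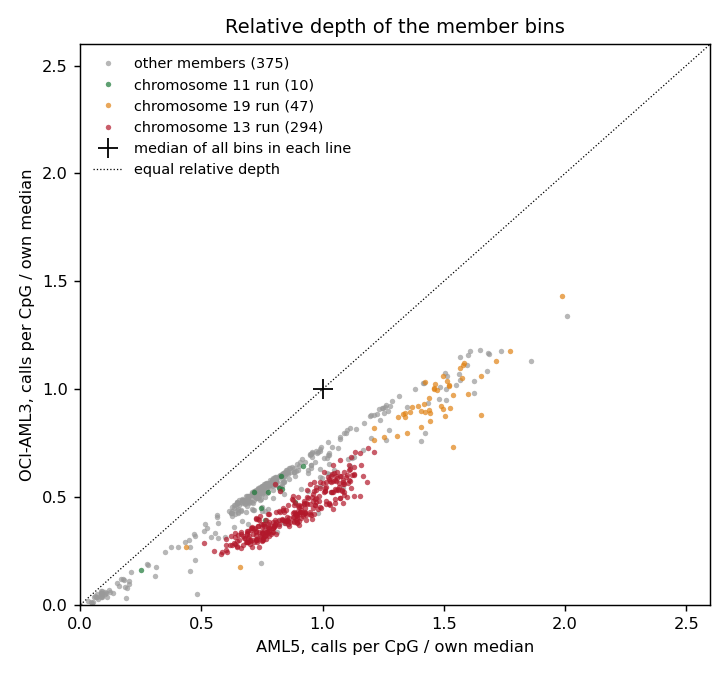
Relative depth of the 726 bins in AML5 (x axis) and OCI-AML3 (y axis), each as calls per CpG divided by that line's own median over bins. The chromosome 13 run (red) lies low on the OCI-AML3 axis, and the chromosome 19 run (orange) lies far to the right on the AML5 axis; the cross marks the median of all bins and the dotted line equal relative depth.

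The chromosome 13 run spanned 29.4 Mb, chr13:39300001-68700000, and all 294 bins in it that could be scored were below the threshold. Its ratio had a median of 0.488 and an SD over bins of 0.056. The first and last bins, which hold the edges, had 0.712 and 0.649, and the 292 bins between them ran from 0.368 to 0.636. Calls per CpG had a median of 10.4 in OCI-AML3 (quartiles 8.54 and 12.8) and 25.6 in AML5 (21.8 and 29.3). The bins were chosen by the ratio of these calls, so a gap between the lines follows from that choice. The 657 bins of chromosome 13 that were not below the threshold had a median ratio of 0.975. CpGs with more than 20 neighbours were not used in choosing bins, though they come from the same 2 libraries. In the 166 bins of the run with 50 or more of them their ratio, scaled by its own median, was 0.506. The median GC content of the run was 37.4%, with 39.7% up to 55000000, 34.6% from there to 60000000 and 34.7% beyond, against 38.4% in the other chromosome 13 bins. With the ratio scaled among bins of the same GC percent 293 of the 294 remained below 0.75.

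Each edge of the run was placed by a search within 300 kb of the run's start or end. The search returns neighbouring CpGs, so the interval between them is CpG spacing and not a measured width of the edge. No error of the placement is given. The depths on either side come from the calls that chose the bins, so the steps are given as a description. The start was placed between the CpGs at 39355489 and 39355711, inside FREM2 (39261214-39461268, plus strand), which encodes an extracellular matrix protein of basement membranes. This interval lies in the intron between exon 4 (ending at 39343945) and exon 5 (starting at 39357207). In the 20 kb before it OCI-AML3 had 18.9 calls per CpG and AML5 24.6, a scaled ratio of 0.908, and in the 20 kb after it 10.2 and 25.04, a ratio of 0.483. The step was thus in OCI-AML3, while AML5 was level. At the other edge, between 68657334 and 68659392, OCI-AML3 went from 9 to 15.0 calls per CpG and AML5 from 22.4 to 18.0, and the ratio from 0.475 to 0.982. No gene covers this edge, which lies between PCDH9 (ending at 67804577) and KLHL1 (starting at 70274726). Between the edges as placed lie 29.3 Mb.

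**Figure D3:**
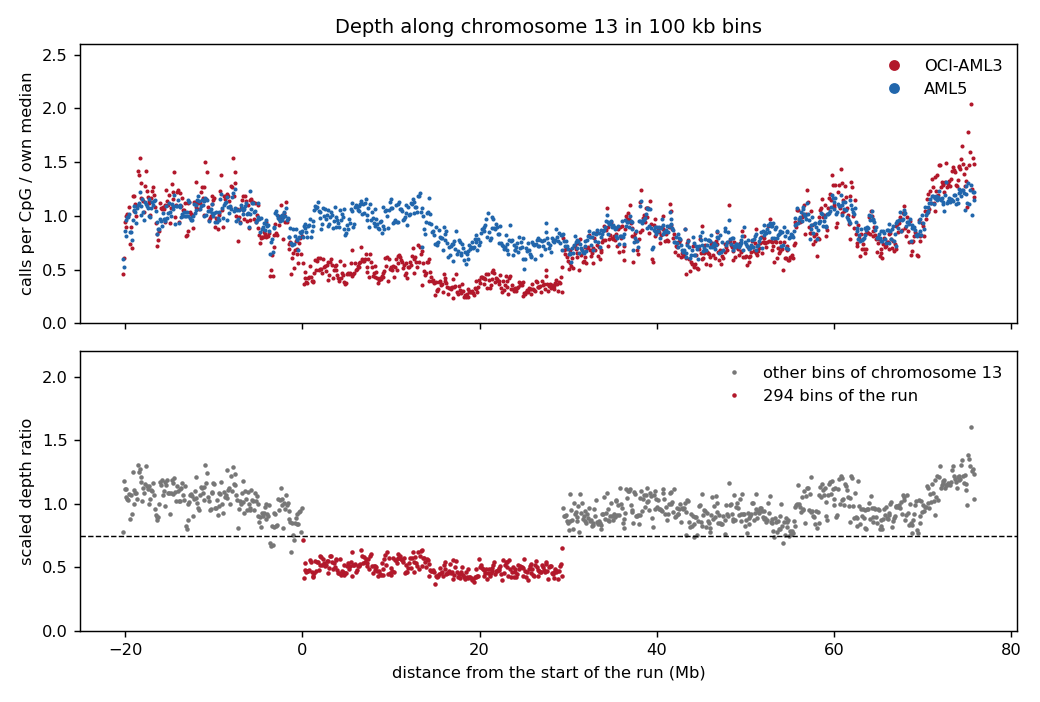
Depth along chromosome 13 in 100 kb bins against the distance from the start of the run; the upper panel gives calls per CpG divided by each line's own median, the lower panel the scaled ratio with the threshold of 0.75 as a dashed line. The OCI-AML3 points drop at the start of the run and rise at its end, 29.4 Mb further on, while the AML5 points pass both edges with no such step.

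The run overlapped 427 annotated genes of all types. Of these, 106 are protein-coding, and 88 of those had 50 or more sparsely placed CpGs in the gene. The depth ratio over the gene was below 0.75 in all 88, from 0.403 in PCDH17, a protocadherin of neuronal adhesion, to 0.714 in UTP14C, a retrogene of ribosome biogenesis. The bins of the run were chosen by this ratio from the same calls, so low values in its genes follow from that choice. They are given as a description. The median was 0.538. RB1 (chr13:48877880-49173572, plus strand), the retinoblastoma protein that holds cells in G1, had 12.98 calls per CpG against 29.7, a ratio of 0.516. FOXO1 (chr13:41129804-41240778, minus strand), a transcription factor held back by AKT signaling, had 12.6 and 31.1, a ratio of 0.477. ELF1, an ETS factor of blood cells, had a ratio of 0.534 and LCP1, the actin-bundling plastin of leukocytes, 0.560. PCDH9, the longest protein-coding gene of the run and a protocadherin, had 8.60 and 21.9 calls per CpG and a ratio of 0.464. These genes were named for their known roles after their values had been seen.

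Genes of known leukemia lesions were compared through lists. Of all 19220 protein-coding genes, 249 (1.30%) had their transcription start site (TSS) in a bin with depth loss. None of the 29 AML driver genes did, DNMT3A, FLT3 and NPM1 included, and neither did any of the 12 genes of the study's methylation signature or of the 21 matched transcription factors of myeloid and stem cells. Of the 41 genes of recurrent deletions in blood cancers, 6 did, and all 6 lie in the chromosome 13 run: RB1, DLEU1, DLEU2, DLEU7, TRIM13 and KCNRG. Their TSS bins had ratios of 0.621 (RB1), 0.545 (DLEU1 and DLEU2), 0.570 (DLEU7) and 0.560 (TRIM13 and KCNRG), so the long non-coding RNAs DLEU1 and DLEU2, the ubiquitin ligase TRIM13 and the potassium channel regulator KCNRG were all in bins of about the same depth. Of the 36 imprinted genes, 2 did, RB1 and the serotonin receptor HTR2A (ratio 0.513), also in the run. With genes of 1 chromosome region on each list, these counts are not independent of each other.

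The run held 14 annotated microRNA hairpins that matched RefSeq. MIR16-1 (chr13:50623109-50623197, minus strand) and MIR15A (chr13:50623255-50623337, minus strand), whose shared seed is printed above, lie in a bin with a ratio of 0.545. Within 2000 bp of the hairpins methylation was near complete in both lines, with 96.1% in OCI-AML3 and 96.1% in AML5 at MIR16-1, and 95.5% and 95.8% at MIR15A. MIR8079 differed most among the 14 in the direction of OCI-AML3 loss (47.3% against 75.1% over 22 CpGs). The rest of the named 13q microRNAs, from the MIR17 cluster, were not matched in the annotation and have no value here.

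The study asked how the methylome of a DNMT3A mutant line differs from that of a wild-type line, and the bins with depth loss were read for the same contrast. A CpG level is the share of methylated calls at a CpG with more than 5 calls in both lines. Over all 718 bins with 20 or more such CpGs, OCI-AML3 averaged 61.8% and AML5 71.8%, which is −10.0 percentage points. Over the 26250 bins without depth loss the averages were 67.8% and 75.5%, or −7.71 points. Both libraries also set the bins, so no test is given. As a share of pooled calls the values were 61.5% (Wilson 95% interval 61.5 to 61.6) and 72.1% (72.1 to 72.2). These intervals cover counting error only, and they are too narrow because 1 read can give several calls. Of the 718 bins, 589 (82.0%) were lower in OCI-AML3, against 88.0% of all 26968 bins.

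The mean hides bins of opposite kinds. The chromosome 13 run averaged 73.1% in OCI-AML3 against 74.3% in AML5, or −1.18 points. There 186 of 294 bins (63.3%) were lower in OCI-AML3, 51 (17.3%) by over 10 points, against 37.5% of all bins. Another 87 (29.6%) were over 10 points higher in OCI-AML3, against 5.44% of all bins. In the 375 bins outside the long runs the levels were 51.8% and 69.2%, a difference of −17.4, and 347 of 367 with a level (94.6%) were lower in OCI-AML3. The chromosome 19 run had 60.7% and 74.6%, with 46 of 47 bins lower, and the chromosome 11 run had 38.7% and 53.0%, with 10 of 10 lower.

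The methylation difference changed its direction along the chromosome 13 run. From the start to 55000000 the 157 bins averaged 73.0% in OCI-AML3 against 78.6%, and 144 of them were lower in OCI-AML3. From 55000001 to 60000000 the 50 bins had 59.7% and 62.0%, with 17 bins over 10 points higher and 21 over 10 points lower. From 60000001 to the end the 87 bins averaged 80.4% in OCI-AML3 against 65.8% in AML5, or +14.6 points, and 65 of them were over 10 points higher in OCI-AML3 and none over 10 points lower. The depth ratio of these 3 parts was 0.514, 0.456 and 0.479, so depth did not turn with methylation. The direction also did not turn at the edges of the run alone. In the 5 Mb before it the difference was −20.4 (51.4% against 71.8%), and in the 5 Mb after it −0.77 (69.4% against 70.2%), with 10 of 50 bins over 10 points higher.

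**Figure D4:**
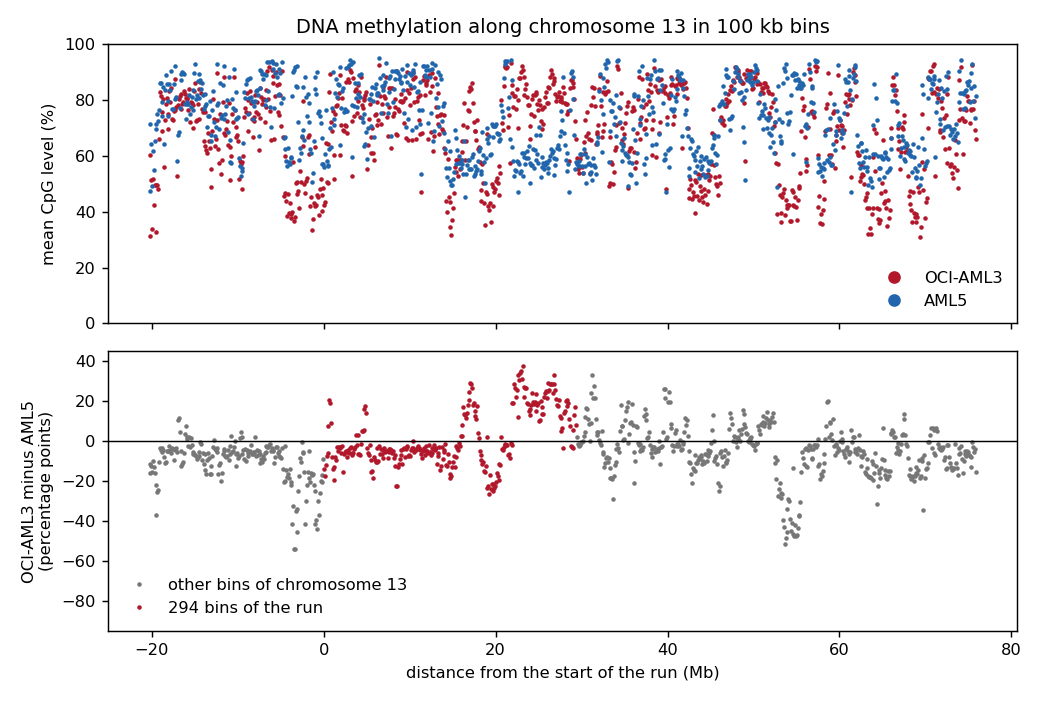
Mean CpG level in 100 kb bins along chromosome 13 for both lines (upper panel) and the difference OCI-AML3 minus AML5 in percentage points (lower panel), against the distance from the start of the run. Bins of the run (red) sit mostly just below 0 in its first part, swing to both sides between 15.7 and 20.7 Mb, and lie mostly above 0 from 20.7 Mb to its end.

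The share of CpGs with an intermediate level, between 0.3 and 0.7, was also lower in OCI-AML3 over the run as a whole. Over 148936 CpGs it was 9.03% against 12.9% in AML5, whereas in the bins without depth loss it was 14.3% and 11.9%. In the chromosome 11 run it was 17.6% and 23.9%, and in the chromosome 19 run 19.03% and 14.3%. Fewer calls make levels coarser, so the shares were also taken at CpGs with 10 to 20 calls in both lines. There they were 9.36% and 13.4% in the run and 15.3% and 13.2% elsewhere. In the run only 9384 CpGs met this limit, all read less often in AML5 than its median of 33 calls. Within the chromosome 13 run the shares over all CpGs read were 7.62% and 8.70% up to 55000000, 15.97% and 24.8% from there to 60000000, and 10.2% and 21.2% beyond. In the 5 Mb from 45000001 to 50000000 the share was higher in OCI-AML3, at 6.92% against 5.58%. In the 5 Mb after the run the shares were 19.6% and 17.0%. At the other ends of the scale, 65.9% of CpGs of the run were above 0.8 in OCI-AML3 and 66.4% in AML5, while in the bins without depth loss the shares were 58.0% and 68.5%. Of all CpGs in the run, 6.65% had no call in OCI-AML3 and 1.85% had none in AML5. A CpG of the run with more than 5 calls in both lines was read a median of 15 times in OCI-AML3 and 33 times in AML5. If 3 calls are needed to detect methylation, shares under 20% and 9.09%, respectively, could not be detected at 1 such CpG.

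**Figure D5:**
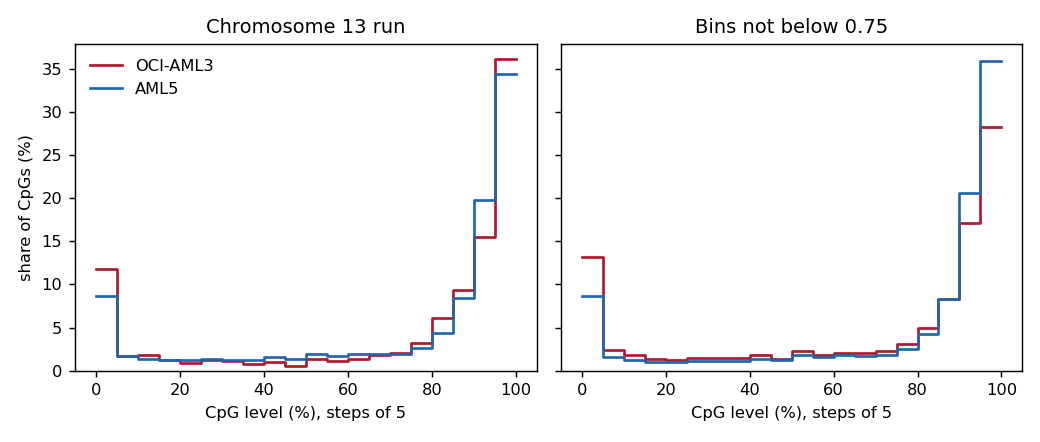
Share of CpGs in each 5-point step of methylation level for both lines, in the chromosome 13 run (left) and in bins not below 0.75 (right), at CpGs with more than 5 calls in both lines. Between 30 and 70% the OCI-AML3 line lies below the AML5 line in the run, and above it in the other bins.

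RB1 has a known imprinted CpG island within an intron, inside the processed pseudogene PPP1R26P1 (chr13:48890999-48894611, minus strand), at which the maternal allele is methylated in normal tissue. The cluster of 293 CpGs around it, chr13:48890448-48895971, lies between exon 2 (ending at 48881542) and exon 3 (starting at 48916735) of the main transcript, and the 300 bases printed above are its densest stretch, with 25 CpGs. The cluster was nearly fully methylated in both lines, at 95.7% in OCI-AML3 (Wilson 95% interval of the calls 95.3 to 96.1, 9949 calls) and 95.2% in AML5 (94.9 to 95.6, 13677 calls). Only 2 of 283 CpGs were intermediate in OCI-AML3 and 0 in AML5. Neither line showed an intermediate level there. The depth of this cluster was 33.96 and 46.7 calls per CpG, close to the 33.8 and 45.6 of the RB1 promoter cluster. Both were higher than over the gene, but the values over the gene come from sparsely placed CpGs only. A pseudogene can share reads with its parent gene, which was not tested here. The RB1 promoter cluster, chr13:48877880-48879073, was unmethylated, with 0 of 3281 calls in OCI-AML3 and 0.814% of 4424 calls in AML5. For OCI-AML3 this allows a share of up to 0.0914% if 3 calls are taken as the limit (Wilson upper bound 0.117%). Both bounds take calls as independent, though 1 read can give several, so they are too low. Another cluster near the end of the gene, chr13:49106011-49107795, had 3.38% and 7.85%.

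Most promoters differed little between the lines; a promoter was the TSS with 2000 bp before and after it, if at least 10 of its CpGs were read in both. In the bins with depth loss 214 could be scored, of which 23 were over 20 points lower in OCI-AML3 (10.7%, against 8.58% of all 18878 promoters) and 4 over 20 points higher (1.87%, against 1.68%). In the chromosome 13 run 5 of 102 were lower and 1 was higher, in the chromosome 19 run 0 and 2 of 37, and outside the long runs 18 of 72 were lower and 1 higher. Among 103 scored promoters of genes overlapping the chromosome 13 run, 36 were below 20% in both lines and 15 above 80% in both. FOXO1 (1.96% and 3.02%), ELF1 (0.199% and 2.21%) and the RB1 promoter window (5.75% and 6.80%) were unmethylated in both, and DLEU7 (95.4% and 93.8%) was methylated in both. KCNRG had 75.2% and 94.5%, the largest gap among the 6 genes of recurrent deletions. At HTR2A the levels were 64.1% and 66.8%.

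The promoter furthest above AML5 was that of CNMD, which encodes chondromodulin, a cartilage glycoprotein that holds back blood vessels. Over 117 CpGs it had 74.6% against 34.8%. In the 300 bases printed above, which start 804 bp downstream of the TSS and lie outside annotated exons, the shares of calls were 80.8% (76.1 to 84.8, 318 calls) and 21.4% (18.0 to 25.2, 496 calls). These intervals cover counting error only, and they are too narrow because a single read can give several calls. The stretch was chosen for its CpG density in the promoter furthest above AML5, and neither line has a replicate. The gap is therefore given as a description. The next were the olfactory receptor gene OR4M2 on chromosome 15 (81.6% and 47.1%), RPSA2 (66.8% and 43.97%) and the zinc finger gene ZNF730 (66.4% and 44.2%) in the chromosome 19 run, and ENSG00000237378 in the chromosome 13 run (92.0% and 72.3%, at a mean depth of 5.26 and 8.53 calls per CpG).

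The promoters furthest below AML5 were mostly outside the long runs. DGKB, a diacylglycerol kinase of neurons, had 29.03% in OCI-AML3 against 82.1% over 14 CpGs, and MMRN1, the platelet and endothelial protein multimerin 1, had 38.9% against 91.1% over 11. SCN2A (19.6% and 52.9%) and SCN3A (20.03% and 48.9%), both voltage-gated sodium channels, share 1 bin on chromosome 2. Another 3 were olfactory receptor genes, OR4C16 (1.63% and 31.1%), OR4C15 (19.1% and 46.4%) and OR2T2 (29.8% and 57.1%). OR4M2-OT1 (33.8% and 60.3%) lies beside OR4M2, whose promoter was higher in OCI-AML3. Both overlap chr15:22300001-22400000, where AML5 was at 1.42 of its own median and OCI-AML3 at 0.795. In the chromosome 13 run PCDH20 (TSS at 61989982 on chromosome 13, minus strand), a protocadherin, had 6.57% against 34.7% over 80 CpGs. In its 300 bases printed above, of which 129 are coding, OCI-AML3 had 0 methylated calls of 352 and AML5 29.5% of 643 calls (26.2 to 33.2). For OCI-AML3 this allows up to 0.852% if 3 calls are taken as the limit (Wilson upper bound 1.08%). Both bounds take calls as independent, though 1 read can give several, so they are too low. Other protocadherin genes of the run did not share the lower level in OCI-AML3. PCDH17 (83.6% and 65.2%) and PCDH8 (86.4% and 73.1%) were higher in OCI-AML3, while PCDH9 was low in both (12.2% and 12.8%).

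The chromosome 19 run, chr19:19800001-24700000, held 47 of 49 bins, with a median ratio of 0.668. It is dense in zinc finger genes: 34 of its 37 TSSs belong to genes named ZNF, transcription factors with tandem DNA-binding fingers that arose by duplication and can share reads. Depth there had a median of 22.8 calls per CpG against 42.3 in AML5, the quartile ranges being 21.8 to 25.4 and 39.5 to 44.4. The chromosome 11 run, chr11:50300001-51600000, held 10 of 11 scored bins, with a median ratio of 0.664 and calls of 13.1 and 23.1 per CpG. It spans an assembly gap of at least 50 kb and ends at another, so its sequence is not continuous. All 10 of its bins and 28 of the 47 on chromosome 19 lie within 1 Mb of a gap of at least 50 kb, against 10.1% of all bins, and none of the chromosome 13 run does.

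The 375 bins outside the long runs had a median ratio of 0.712, close to the threshold. Their median GC content was 36.5%, against 39.9% over all bins, and 120 of them (32%) lay within 1 Mb of an assembly gap. In these 375 bins 16.8% of CpGs had no call in OCI-AML3 and 10.8% none in AML5, against 2.65% and 1.60% in bins without depth loss. With the ratio scaled among bins of the same GC percent, 163 of the 375 stayed below 0.75. The part of base composition and of gaps in these ratios was not tested further. Among bins under 38% GC outside the chromosome 13 run, the median difference in level was −18.6 points where the ratio was below 0.75 (268 bins), −17.7 from 0.75 to 0.85 (1868 bins), −10.0 from 0.85 to 0.95 (3596 bins) and −4.97 from 0.95 to 1.05 (2036 bins). In the 160 bins of the chromosome 13 run under 38% GC it was +11.4 points, with −5.91 in the 34 of them in its first part and +15.1 in the other 126.

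Among genes, olfactory receptors had 35 of 414 TSSs in bins with depth loss (8.45%), none of them in a long run. Of 503 ZNF genes 48 did (9.54%), with 34 of the 48 in the chromosome 19 run, where depth was raised in AML5, and 14 elsewhere. Over all protein-coding genes the share was 1.30%. Of the UDP-glucuronosyltransferase 2 genes, which conjugate steroids and bile acids, 3 of 10 did, as did 3 of 10 pregnancy-specific glycoprotein genes. These families were chosen after the values had been seen, and their members lie in clusters, so a single bin can hold several.

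Of the giant genes at common fragile sites, 3 of 12 were touched without their TSS. Such genes cover many bins, from 8 to 24 each, and 9 of their 210 bins were below the threshold (4.29%, against 2.69% of all bins). LSAMP (chr3:115521221-116858236, minus strand), a neuronal adhesion protein, had 2 neighbouring bins of low ratio, chr3:116500001-116600000 with 0.420 and chr3:116600001-116700000 with 0.459. Calls per CpG there were 8.39 and 9.49 in OCI-AML3 and 23.6 and 24.4 in AML5, so OCI-AML3 was at 0.337 and 0.381 of its own median and AML5 at 0.813 and 0.842. Methylation in them was 79.8% against 79.9% in the first and 85.5% against 71.4% in the second. PTPRD, a receptor tyrosine phosphatase, had 4 scattered bins with ratios from 0.692 to 0.749, and NBEA, a scaffold of vesicle traffic on chromosome 13 upstream of the run, had 3 with ratios from 0.668 to 0.688. All 7 of these bins had less methylation in OCI-AML3, with differences from −18.9 to −46.6 points in PTPRD and from −32.3 to −53.8 in NBEA.

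Outside the chromosome 13 run 64 bins had a ratio below 0.6, of which 37 had at least 10 calls per CpG in AML5, and 26 of these 37 lay within 1 Mb of an assembly gap. Ratios below 0.25 were found in 4 bins. The lowest, 0.103, was chr4:69400001-69500000 with UGT2B17, an enzyme that conjugates androgens and whose gene is a known deletion polymorphism in people, with 721 calls in OCI-AML3 and 8292 in AML5. The other 3, on chromosome 1 (0.158, with the gene AL592284.1), chromosome 5 (0.160) and chromosome 10 (0.219), had at most 5.47 calls per CpG in AML5 as well.

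Stretches without any OCI-AML3 call were searched as 20 or more consecutive CpGs with 0 calls in OCI-AML3 and a mean of at least 10 in AML5. There were 135 on the autosomes, and 47 of them (34.8%), with 1694 CpGs, lay in 19 of the bins with depth loss. Bins with few calls in OCI-AML3 were chosen, so such stretches had to be more common in them, and the share is given as a description. The largest locus was UGT2B17, where 11 stretches with 455 CpGs lay within chr4:69381105-69488507, at 0.159 against 13.4 calls per CpG over the whole span. The next was chr19:43649474-43737610 over the pregnancy-specific glycoprotein genes PSG5, PSG4 and PSG9, with 9 stretches and 0.346 against 27.7 calls per CpG. A span of 24443 bp at SIRPB1, a signal-regulatory receptor of myeloid cells, chr20:1569555-1593997, held 3 stretches with 181 CpGs and 1.08 against 29.1 calls per CpG. Single stretches were found within ERBB4 (54 CpGs), SCN3A (25) and CCSER1 (25). In the chromosome 13 run there were 2, one of 59 CpGs at chr13:64224708-64234754 with 16.1 calls per CpG in AML5 and one of 20 CpGs at chr13:45868108-45868764 with 43.8. Stretches without calls were not particular to OCI-AML3. With the lines exchanged there were 161 stretches without any AML5 call, more than the 135 without any OCI-AML3 call. Of the 161, 2 (1.24%) lay in bins with depth loss.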

How the data were processed

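Whole-genome bisulfite sequencing of OCI-AML3 and AML5 was analysed from the deposited counts, 1 of methylated and 1 of unmethylated calls for each CpG, which the authors made by aligning reads to hg19 with Bismark and Bowtie 0.12.8 (versions as in the submitters' processing notes) and adding both strands of a CpG. The counts are raw and neither smoothed nor normalized. Removal of duplicate reads is not given in the sources used here. The tables have no header, so the methylated column was identified from mitochondrial DNA, which is nearly unmethylated. Positions are those of the G and matched CpGs of GRCh37 on chromosome 21 (100%).

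Bins, levels, runs and promoters were computed with pandas 2.3.3, numpy 2.4.6, pysam 0.24.0 and scipy 1.17.1 under Python 3.11.15, and the binning was tested on simulated data. Genes came from GENCODE on GRCh37 and microRNA sequences from RefSeq. Levels needed more than 5 calls per CpG in both lines. With 1 library per line no test was made, and Wilson 95% intervals are given for pooled calls.

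Named genes were those of fixed lists with a TSS, or for genes cut by an edge any part, in such a bin; the 10 promoters furthest below and the 5 furthest above AML5; and genes over bins with a ratio below 0.25. One of the 10 is not reported here. Genes named outside this rule were chosen after their values were seen. The bins and lists were chosen with earlier results of these data known, and 8 listed symbols were not matched. Sequences were chosen as the 300 bases with most CpGs in the RB1 cluster and, without annotated UTR bases, in the PCDH20 and CNMD promoters. Alternatives changed the threshold, neighbours, call limits, bin size and scaling.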

Additional observations from a re-analysis of the deposited data

How the results depend on the processing

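The count of 726 bins moved by more than 1.5 times with a threshold of 0.80 (1481 bins), with 50 kb bins (1978 of 53814) or 200 kb bins (273 of 13522), and with the ratio divided by that of total calls (1327); under the other alternatives it ran from 500 (threshold 0.70) to 1082 (no limit on neighbours). Scaling within GC percent, added after seeing the data, gave 738 bins, of which 509 were among the 726, and a call limit for each line on its own, also added, gave 683. The 3 long runs became 2 with gaps of at most 200 kb or with at least 20 members. The mean methylation difference of −10.0 points kept its sign: it was −10.3 at 10 or more calls, −9.84 at 1 or more, −10.6 with every call counted once, −11.3 at CpGs with at most 20 neighbours, −16.3 without chromosome 13, −6.35 at a threshold of 0.70, −13.5 at 0.80 and −11.4 at 10 to 20 calls (added). The share of bins lower in OCI-AML3 went from 82.0% to 94.9% without chromosome 13, 75.1% at 0.70 and 87.3% at 0.80. Intermediate CpGs over all 726 bins made up 15.1% in OCI-AML3 and 16.0% in AML5, or 24.2% and 24.9% between 0.2 and 0.8, and 16.3% and 17.0% at 10 to 20 calls (added). Promoters over 20 points lower numbered 14 of 180 with 1000 bp on either side, against 23 of 214, and 17 of 200 at 10 or more calls. No paired analysis was possible because each line has 1 library and no replicate.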

Other observations

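CpG-rich sequence of the chromosome 13 run was read differently from sparse sequence. The values that follow are from CpGs with more than 5 calls in both lines, so the CpGs with fewest calls are left out. At CpGs with more than 50 neighbours within 500 bp OCI-AML3 had 0.717 times the calls per CpG of AML5, before any scaling, and at those with at most 5 neighbours 0.454 times. In the bins without depth loss the same ratios were 1.48 and 0.852, so a like step between the density classes was present there. The methylation difference in the run was +1.83 points at CpGs with at most 5 neighbours, −2.17 at 6 to 20, −1.90 at 21 to 50 and −1.25 above 50. In the bins without depth loss it was −10.8, −8.20, −6.62 and −2.79.

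The depth ratio gives no copy number, since neither line was compared with normal DNA. Depth per CpG limits levels in the run more in OCI-AML3 than in AML5. Expression of the genes named was not analysed here.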
